A study of Arabidopsis thaliana with 3 samples.

Results

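FLC, SVP, FT and SEP3 are 4 Arabidopsis thaliana genes that control when the plant flowers and what its floral meristems make. They were taken by locus identifier (AT5G10140, AT2G22540, AT1G65480 and AT1G24260) from the 2666 loci that the authors' deposited tables list in all, and the symbols in those tables matched the names used here. The tables compare each of 2 mutants, pwo1 and the double mutant crwn1 crwn2, with the wild type Col-0. PWO1 carries a PWWP domain and works with the Polycomb proteins that silence genes, and CRWN1 and CRWN2 are long coiled-coil proteins at the inner edge of the nucleus. The mutant alleles are not named in the labels, and every genotype was whole seedlings at 14 days, grown upright on MS plates in long days after 2 days of stratification. The design text gives 3 biological replicates per genotype, sequenced as paired-end RNA libraries.

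What the tables hold is the outcome of the authors' tests, with no value per library, so the level of each gene in each genotype and the depth behind it are unknown. For each gene edgeR, which models read counts, and Cuffdiff, which models transcript abundance, each supplied a log2 fold change with its p-value. Log2 fold changes are mutant over Col-0, so a value of 1 is a doubling in the mutant. The edgeR values are given first, with a standard error implied by the fold change and its p-value under a normal approximation. Only genes that passed in both tools appear: the authors' deposited table for pwo1 lists 1239 genes, 527 higher and 712 lower, and that for crwn1 crwn2 lists 1935, of which 1093 were higher and 842 lower. A gene that a table does not list is therefore not shown to be unchanged.

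In Arabidopsis, leaves that sense long days make the FT protein, the florigen, which moves to the shoot apex and there, with the bZIP factor FD, turns on the genes of floral meristem identity. FLC and SVP are MADS-domain repressors that bind DNA, partly as a complex, and hold back FT and other floral promoters. SEP3 is a MADS-domain protein of the opposite end of the pathway: it joins the other floral factors in complexes that specify petals, stamens and carpels. FLC is itself silenced by Polycomb proteins after winter cold and by the autonomous pathway.

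In pwo1 the repressors FLC and SVP fell and SEP3 rose, while in crwn1 crwn2 SVP fell and FT rose. The pwo1 table lists 3 of the 4 genes and the crwn1 crwn2 table lists 2 of the 4, where 4.38% and 6.91% of the reference's 27562 protein-coding genes are listed. Taken by direction, 1.88% of them are listed as higher and 2.5% as lower in pwo1, and 3.92% as higher and 2.99% as lower in crwn1 crwn2. The genes were chosen by their listing and fold changes in these same comparisons, so these counts and the values below are a description, and nothing is read from their number. SVP is the gene that both tables list.

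MADS-domain proteins recognise the CArG box, a run of A and T between CC and GG, and the regulatory DNA of the 4 genes was therefore searched for it. The window ran from 1500 bases before to 1500 bases after the annotated gene start, on both strands, in NCBI RefSeq's build TAIR10.1. Only boxes with CC and GG intact and A or T alone between them, as long as those printed below, were counted. This form was found once in FT and once in SEP3, in an intron of each, and not in FLC or SVP. Other forms of the box and the parts of each gene beyond the window were not searched. The absence in FLC and SVP therefore covers this form and window alone. Of 27440 protein-coding genes with a complete window, 17.9% held at least one such box. Among 125 MADS-box genes the share was 24.8%, and among the genes listed for pwo1 and for crwn1 crwn2 it was 18.6% and 17.7%. These are the 2 sites found, in the direction of the gene and with the box in capitals.
FT intron, chr1:24331791-24331820, plus strand: aaattattttCCTTTTTTGGggtatactga
SEP3 intron, chr1:8595106-8595135, minus strand: ttaggggtttCCAATTTTGGgttttgaatt
A match is a stretch of letters and not a measured binding site, and binding was not measured here. The box itself starts at base 429 of the FT gene and at base 999 of SEP3, counted from 1 at the annotated gene start.

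The FT promoter also carries the letters of the CO-responsive element, searched as TGTGNNATG on both strands in the 250 bases before the gene start. CONSTANS (CO), the long-day activator of FT, binds such elements. In this form the element occurred once in FT, starting 83 bases before the gene start, and not in FLC, SVP or SEP3. Forms with a different spacing were not searched, so the count covers TGTGNNATG alone. That form was present in 3.34% of 27443 promoters of the same length and in 4.17% of those of 96 flowering genes. The FT promoter is printed with the match to TGTGNNATG in capitals, and any element of another spacing is left unmarked.
FT promoter, chr1:24331123-24331372, plus strand: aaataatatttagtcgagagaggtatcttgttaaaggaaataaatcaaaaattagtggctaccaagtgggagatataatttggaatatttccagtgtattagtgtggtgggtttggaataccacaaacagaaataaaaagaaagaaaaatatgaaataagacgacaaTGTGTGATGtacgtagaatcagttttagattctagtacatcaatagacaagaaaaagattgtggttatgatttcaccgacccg
The telobox AAACCCTA, a motif of Polycomb target sites, was searched in these 250 bases alone and found in none of the 4 promoters. The share was 4.49% of all promoters, 14.4% of those of MADS-box genes and 3.12% of those of the flowering lists. Teloboxes elsewhere in the 4 genes were not searched for. A CArG box of the form above was not found in these 4 shorter windows either, where 2.52% of all promoters held one.

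FT, the florigen gene, was higher in crwn1 crwn2. The authors' deposited table gave a log2 fold change of 1.65 with an implied standard error of 0.41, a 3.14-fold difference (edgeR p = 5.83e-05). Cuffdiff gave 1.77 in the authors' deposited table. By size FT was number 249 of the 1093 genes higher in crwn1 crwn2, whose median in the authors' deposited table was 1.01. FT is not listed for pwo1, the mutant in which FLC and SVP were both lower. It has no overlapping annotated gene, 2 annotated transcripts and up to 4 exons. FT RNA is made by phloem cells of the leaf, and in whole seedlings more cells of a type and more RNA per cell cannot be told apart, which holds for each gene below as well.

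FLC, the repressor that links flowering to winter cold, was lower in pwo1. The authors' deposited table gave -2.16 with an implied standard error of 0.34, so that the level in pwo1 was 4.48-fold lower (edgeR p = 2.98e-10). Cuffdiff gave -2.26 in the authors' deposited table. This was the largest fold change of the 4 genes, and FLC stood at number 28 by size among the 712 genes lower in pwo1, whose median in the authors' deposited table was -0.83. FLC is not listed for crwn1 crwn2. The long noncoding RNA gene AT5G01675 spans the FLC locus on the opposite strand. The sources used here do not say whether counting used the strand, so sense FLC reads and antisense reads cannot be told apart in this value.

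SVP, the repressor that also responds to ambient temperature, was lower in both mutants. The authors' deposited table for pwo1 gave -0.80 with an implied standard error of 0.16, a level 1.74-fold lower (edgeR p = 9.89e-07). The authors' deposited table for crwn1 crwn2 gave -0.75 with an implied standard error of 0.18, a level 1.68-fold lower (edgeR p = 3.53e-05). The values in pwo1 and crwn1 crwn2 lay 0.051 apart on the log2 scale, which is less than either implied error. Both mutants were set against the same Col-0, so the values are not independent of each other and are given side by side only. Cuffdiff gave -0.77 for pwo1 and -0.65 for crwn1 crwn2 in the authors' deposited tables. SVP was an ordinary member of each table by size, number 382 of 712 genes lower in pwo1 and 445 of 842 lower in crwn1 crwn2. No annotated gene overlaps it.

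SEP3, the floral organ identity gene, was higher in pwo1. The authors' deposited table gave 1.46 with an implied standard error of 0.39, a 2.75-fold difference (edgeR p = 1.75e-04). Cuffdiff gave 1.55 in the authors' deposited table. SEP3 was number 70 by size of the 527 genes higher in pwo1, whose median in the authors' deposited table was 0.81. It is not listed for crwn1 crwn2, and no annotated gene overlaps it.

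**Figure D1:**
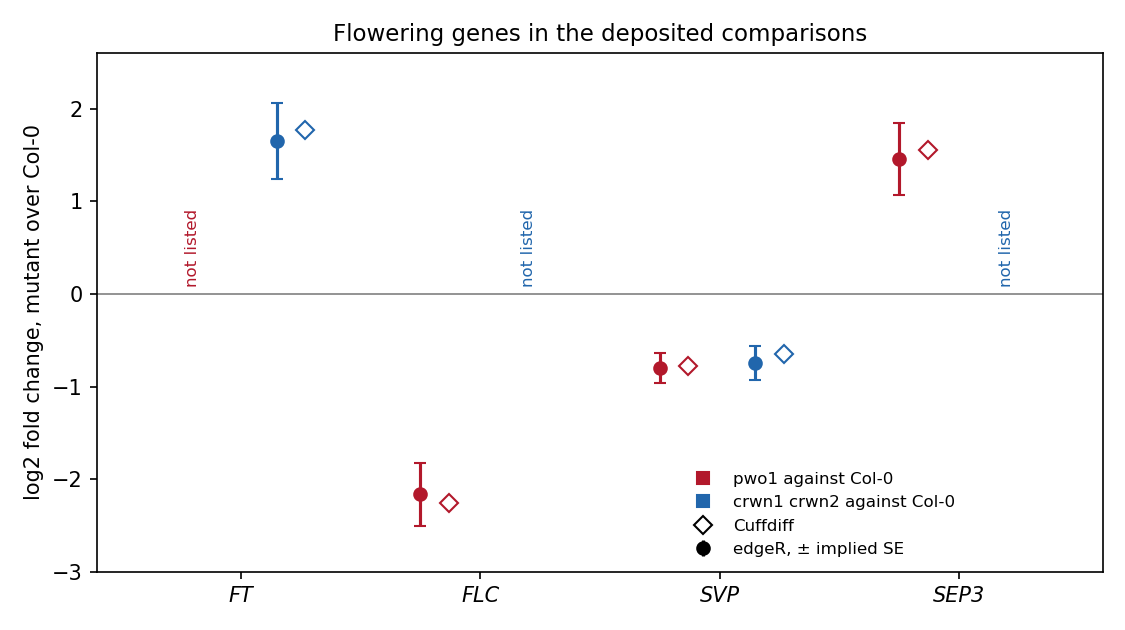
Log2 fold change (mutant over Col-0, vertical axis) of FT, FLC, SVP and SEP3 in the authors' deposited tables for pwo1 (red) and crwn1 crwn2 (blue). Filled circles are edgeR values with the implied standard error, open diamonds are Cuffdiff values, and "not listed" marks a table without the gene. FLC at -2.16 and both SVP values lie below 0, and FT at 1.65 and SEP3 at 1.46 lie above it.

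**Figure D2:**
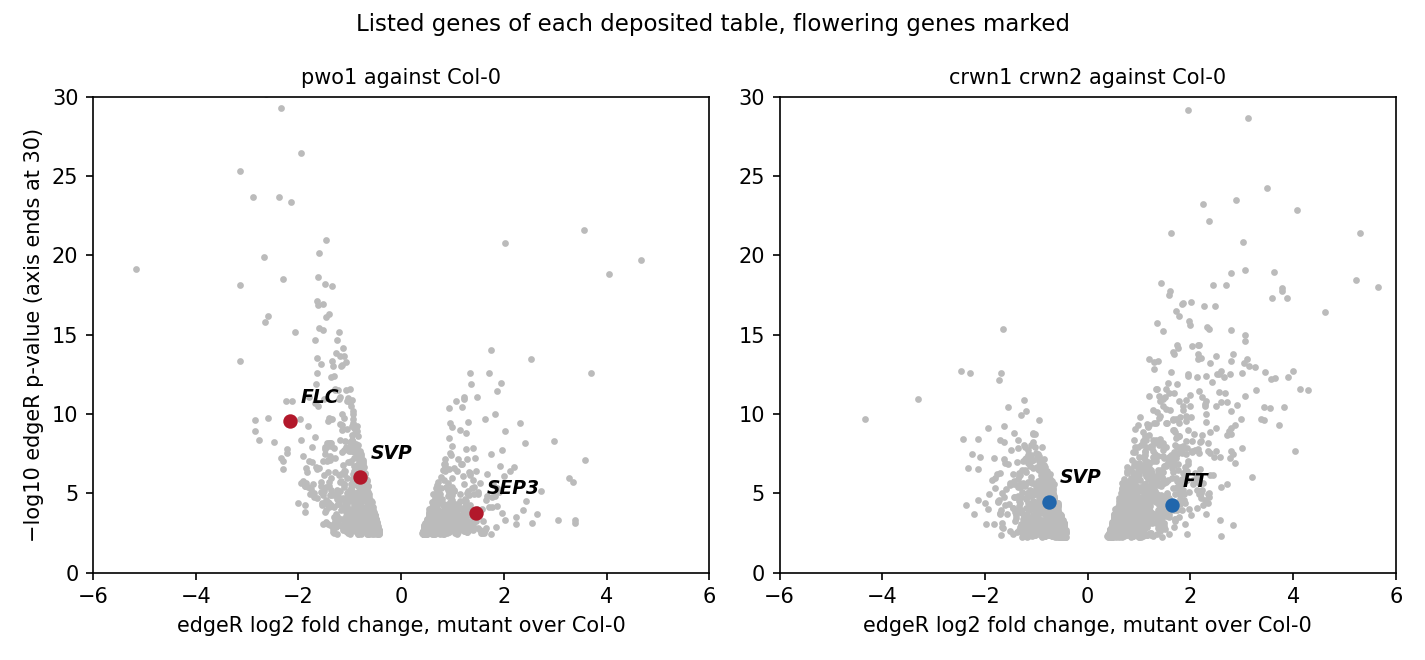
Each grey point is a gene of the authors' deposited tables, with its edgeR log2 fold change (mutant over Col-0) on the horizontal axis and −log10 of its edgeR p-value on the vertical axis, for pwo1 (left) and crwn1 crwn2 (right). Genes beyond the axis limits, 6 for pwo1 and 8 for crwn1 crwn2, are not drawn. FLC sits on the outer left of the pwo1 cloud, and SVP lies within the cloud in both panels.

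The sign of the crwn1 crwn2 values was checked on the mutated genes. CRWN1 was at -3.03 and CRWN2 at -2.42 in the authors' deposited table. PWO1 is not listed for pwo1, so the direction of FLC, SVP and SEP3 in pwo1 is read from a header of the same form and would turn with it. Of the 4 genes, each p-value above stayed under 0.05 when bounded by a Benjamini-Hochberg adjustment over all 38094 reference loci. The largest of these bounds was 0.011, for the authors' edgeR p of SEP3 in pwo1.

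Around these 4 genes stand 92 others of the flowering pathway, arranged in 13 lists by role. Of the 92, 7 were lower and none was higher in pwo1, and 8 were lower and none was higher in crwn1 crwn2. That is 7.61% and 8.70% of the list, against the 4.38% and 6.91% of protein-coding genes listed in either direction and the 2.5% and 2.99% listed as lower. The lists were written with part of these results known, and no test of them was made. The median log2 fold change of the listed ones was -0.79 in pwo1 and -0.92 in crwn1 crwn2 in the authors' deposited tables. Over all genes listed as lower it was -0.83 in pwo1 and -0.76 in crwn1 crwn2.

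SNZ and TOE3, AP2-type relatives of APETALA2 that microRNA miR172 silences as the plant ages, were lower in both mutants. In the list of 7 AP2-type and RAV repressors, 3 were lower in pwo1 and 2 in crwn1 crwn2, where 2.5% and 2.99% of protein-coding genes are listed as lower. SCHNARCHZAPFEN (SNZ), a repressor of FT, had a log2 fold change of -0.78 in pwo1 and -0.95 in crwn1 crwn2 in the authors' deposited tables. TOE3 had -1.20 in pwo1 and -1.54 in crwn1 crwn2 in the authors' deposited tables, and overlaps a protein-coding gene on the opposite strand. TOE1 was listed for pwo1 alone, at -0.79 in the authors' deposited table. TEM1 and TEM2, repressors of FT from the RAV family, and SMZ and TOE2 are listed in neither table. FT itself is listed for crwn1 crwn2 and not for pwo1.

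In the photoperiod and light list of 13, 4 genes were lower in pwo1 and 2 in crwn1 crwn2, or 30.8% and 15.4%, against 2.5% and 2.99% of protein-coding genes listed as lower. GIGANTEA (GI), which promotes the transcription of CO, had -0.52 in pwo1 and -0.59 in crwn1 crwn2 in the authors' deposited tables. The DOF factors CDF1, CDF2 and CDF3, which repress CO, were lower in pwo1, and the authors' deposited table put them at -1.11, -0.54 and -0.88. The authors' deposited table gave CDF1 the smallest p-value among these pathway genes in pwo1 (edgeR p = 1.82e-10). NF-YB2, a histone-fold partner of CO, was lower in crwn1 crwn2 at -0.86 in the authors' deposited table and overlaps 2 genes on the opposite strand. CO is listed in neither table, nor are the light receptors PHYA, PHYB and CRY2 or the ubiquitin ligase gene COP1.

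From the list of FT partners and the SOC1 clade, 2 of 8 genes are listed for crwn1 crwn2, both lower. Of all protein-coding genes, 2.99% are listed as lower there. For FD, the bZIP partner of FT at the apex, the authors' deposited table gave -0.90 with an implied standard error of 0.31 (edgeR p = 0.0042), opposite in sign to FT. For AGL14, a MADS-domain relative of SOC1 that also acts in roots, the authors' deposited table gave -1.46 with an implied standard error of 0.50 (edgeR p = 0.0037). The adjusted bounds for FD and AGL14 were 0.088 and 0.080 with the authors' edgeR p-values, so neither is shown to pass 0.05. The same holds for GI in crwn1 crwn2, at 0.051. SOC1 is listed in neither table, nor is any of the 5 floral meristem identity genes LFY, AP1, CAL, FUL and UFO. Of the 12 floral organ identity genes, SEP3 was the one listed for pwo1 and none was listed for crwn1 crwn2. Of all protein-coding genes, 4.38% are listed for pwo1 and 6.91% for crwn1 crwn2 in either direction. Nothing is read from the meristem and organ identity counts, which come from short lists.

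SPL3, a promoter of flowering held down by miR156 in young plants, was lower in crwn1 crwn2. Its log2 fold change was -1.22 by edgeR and -5.61 by Cuffdiff in the authors' deposited table, so its size is uncertain. The tools lay more than 1 apart for 17 of 1934 genes in the authors' deposited crwn1 crwn2 table. SPL3 overlaps a long noncoding RNA gene on the opposite strand. GAI, a DELLA repressor of gibberellin responses, had -0.68 in crwn1 crwn2 in the authors' deposited table. SPL3 and GAI were 1 of 5 SPL genes and 1 of 4 gibberellin genes, where 2.99% of protein-coding genes are listed as lower in crwn1 crwn2. Neither is listed for pwo1.

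**Figure D3:**
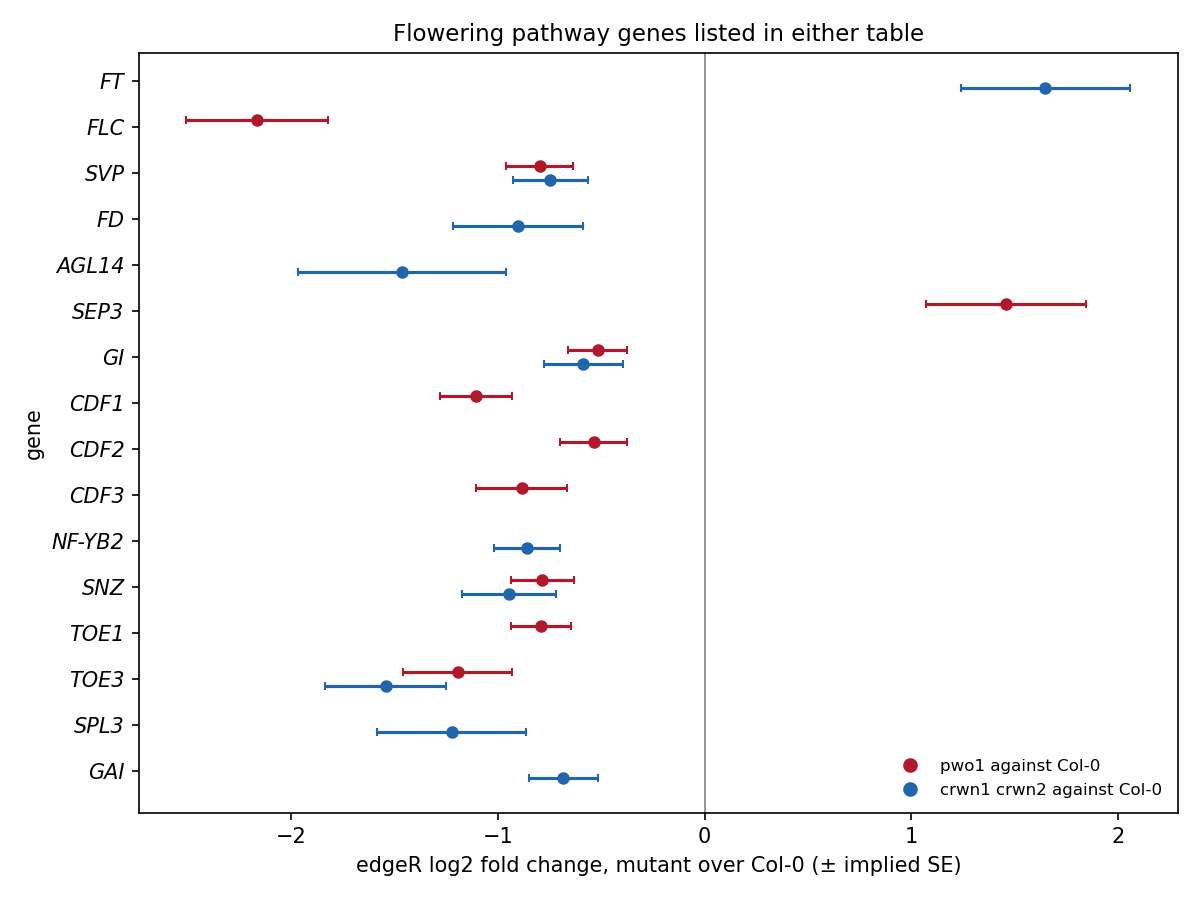
EdgeR log2 fold change (mutant over Col-0, horizontal axis, with the implied standard error) of the 16 flowering pathway genes that either deposited table lists, for pwo1 (red) and crwn1 crwn2 (blue). A gene without a point of one colour is not listed in that table. All values lie below 0 except FT at 1.65 in crwn1 crwn2 and SEP3 at 1.46 in pwo1.

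The regulators of FLC on these lists were absent from both tables. None of the 10 activators of FLC, which include FRI and the PAF1 complex, is listed for pwo1 or for crwn1 crwn2. The same holds for the 7 genes of the autonomous pathway and the 11 vernalization and Polycomb genes. Of all protein-coding genes, 4.38% are listed for pwo1 and 6.91% for crwn1 crwn2. With such shares, nothing is read from the absence of lists this short. The relatives of FLC, which are FLM and MAF2 to MAF5, are not listed either, so FLC was 1 of 6 in its clade in pwo1. AGL24, the relative of SVP that promotes flowering, and the FT relatives TSF, TFL1, ATC, BFT and MFT are listed in neither table. Among all 125 MADS-box genes of the reference annotation, the pwo1 table lists FLC, SVP and SEP3, and the crwn1 crwn2 table lists SVP and AGL14. Those shares are 2.4% and 1.6%, against 4.38% and 6.91% of all protein-coding genes. Many MADS-box genes act in flowers, pollen or seeds, and how many were tested by the authors is not known.

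The 5 protein-coding genes on either side of each of the 4 genes were also looked up. For pwo1, 3 of 40 such neighbours are listed, and for crwn1 crwn2 also 3 of 40, which is 7.5% against the 4.38% and 6.91% of protein-coding genes. FLC had 2 of its 10 neighbours in both tables. AT5G10150, the next gene upstream of FLC, lies 2490 bases away, and its deposited description gives no known function. It had -0.51 in pwo1 (edgeR p = 6.75e-04) and -0.46 in crwn1 crwn2 (edgeR p = 0.0031) in the authors' deposited tables. Its adjusted bound was 0.032 in pwo1 and 0.068 in crwn1 crwn2, from the authors' edgeR p-values. SULTR2;1, a sulfate transporter gene, had -0.89 in pwo1 and -1.16 in crwn1 crwn2 in the authors' deposited tables. In crwn1 crwn2 these neighbours of FLC were thus listed as lower while FLC is not listed.

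Beside SVP, the glycosyltransferase gene AT2G22590 was higher in pwo1, at 1.50 in the authors' deposited table, opposite in sign to SVP. Near FT, AT1G65486, whose deposited description gives no known function, was higher in crwn1 crwn2, at 1.09 in the authors' deposited table. The 3 genes between AT1G65486 and FT are not listed. No neighbour of SEP3 is listed.

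**Figure D4:**
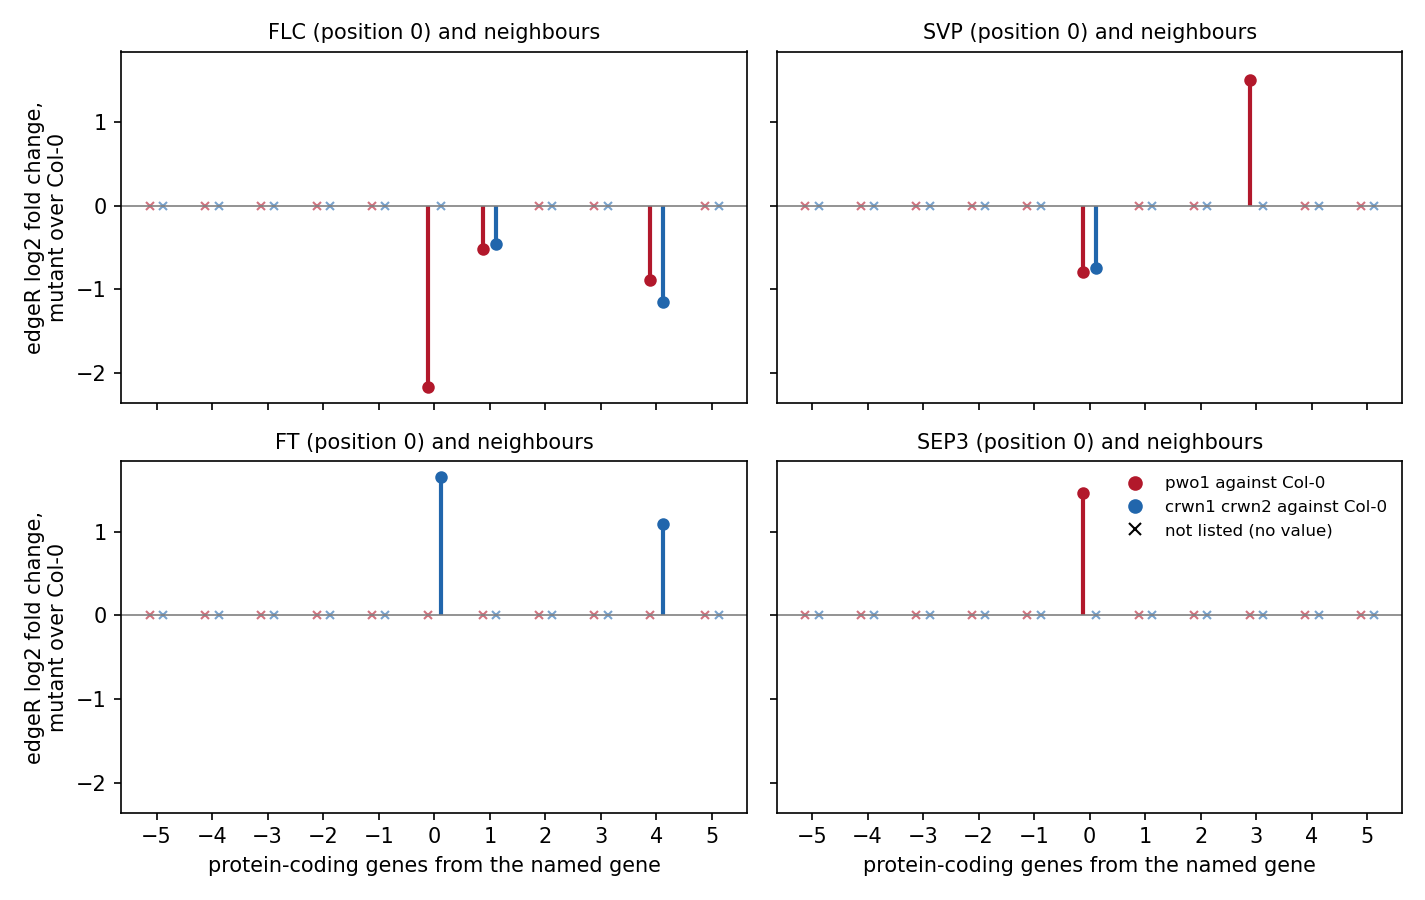
EdgeR log2 fold change (mutant over Col-0, vertical axis) of FLC, SVP, FT and SEP3, at position 0, and of the 5 protein-coding genes on either side in chromosome order (horizontal axis), for pwo1 (red) and crwn1 crwn2 (blue). Crosses mark genes that the table does not list and that have no value. FLC at -2.16 stands beside AT5G10150 at -0.51 in pwo1, and most positions hold only crosses.

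The genes with the most similar fold changes were named by the smallest distance in edgeR log2 fold change over the tables that list each of the 4, among genes listed in exactly the same tables. For SVP, over 2 comparisons and 507 candidates, these were the hydrolase gene AT1G18360, the membrane protein gene AT4G15620 and GLK1, a regulator of chloroplast development, at distances of 0.0072, 0.013 and 0.040. For FLC, over 1 comparison and 730 candidates, the authors' deposited table gave the zinc finger gene AT3G02790 at -2.15, PRB1 at -2.12 and FAMT at -2.21. SEP3 was matched by ERF13, AT5G46900 and AT5G52050, each at 1.46 in the authors' deposited table for pwo1. FT was matched among 1426 candidates by ARI12, the bZIP gene HYH and AT5G45000, at 1.65, 1.66 and 1.66 in the authors' deposited table for crwn1 crwn2. AT1G18360, AT3G02790 and AT5G45000 each overlap a gene on the opposite strand, which makes their values uncertain. With 1 or 2 comparisons such likeness is shared by many genes.

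Markers of leaf, root and seed were looked up because whole seedlings mix these tissues. Of 7 leaf markers 3 were lower and 1 was higher in pwo1, within -0.97 to 0.76 in the authors' deposited table. That is 57.1% of the leaf markers listed for pwo1, against 4.38% of protein-coding genes. For crwn1 crwn2 the share was 14.3%, against 6.91%, and in crwn1 crwn2 GLK1 was lower at -0.73 in the authors' deposited table. Neither table lists any of 10 root markers or any of 8 seed markers. The part of tissue proportions in the values of FLC, SVP, FT and SEP3 was not tested. As the tables give no levels, the labelled tissue could not be checked against its markers.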

How the data were processed

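Per the file headers, the deposited columns are log2 fold changes and p-values from edgeR and from Cuffdiff. The authors' tools, per the submitters' processing notes, were Trimmomatic 0.35, FastQC 0.10, TopHat2 2.0.12, HTSeq 0.6.1, Cufflinks 2, edgeR 3.3, Cuffdiff 2.2.1 and DiffBind 2, with build TAIR10. The notes give no roles or order, and normalization, filters, strand setting and listing threshold are not stated there. In the authors' deposited tables the edgeR p-values reach 0.00386 for pwo1 and 0.00585 for crwn1 crwn2. Unreadable or infinite Cuffdiff fold changes were left out.

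With Python 3.11.15, pandas 2.3.3 and scipy 1.17.1, rows were looked up by locus, and no gene was retested. Implied standard errors are the absolute log2 fold change divided by the normal quantile of the two-sided p. Adjusted p-values are upper bounds, by Benjamini-Hochberg over 38094 reference loci, checked on simulated data. Percentages listed use 27562 protein-coding genes, since the genes the authors tested are unknown. This makes the background too low. Names, neighbours, overlaps, sequences and their coordinates came from RefSeq TAIR10.1, whose name differs from the authors' TAIR10. It held 1236 of 1239 identifiers listed for pwo1 and 1933 of 1935 for crwn1 crwn2. MADS-box genes are those whose product or synonyms name MADS-box or AGAMOUS-like. Named genes are the 4 genes, every listed gene of the 13 flowering lists and of the MADS-box genes, the mutated genes, listed neighbours and 3 nearest genes each. The 4 genes and the lists were chosen with earlier results of these data known. The motif searches were added after the tables were seen.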

Additional observations from a re-analysis of the deposited data

How the results depend on the processing

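Every direction was the same by Cuffdiff, with log2 fold changes in the authors' deposited tables of -2.26 for FLC, -0.77 for SVP and 1.55 for SEP3 in pwo1, and -0.65 for SVP and 1.77 for FT in crwn1 crwn2. Only genes that passed in both tools are listed. The tools differed in sign for 0 of 1238 genes listed for pwo1 and 1 of 1934 for crwn1 crwn2. The shared direction is therefore no separate support for these genes. Each of these Cuffdiff values lay within 1 implied standard error of the edgeR value, an error derived from the p-value and not from replicate values. Both tools worked on the same samples, so that error does not gauge how far the tools should differ. The median absolute difference between the tools was 0.023 over the genes listed for pwo1 and 0.042 over those for crwn1 crwn2. With an absolute log2 fold change of at least 1, SVP no longer counted, which left 2 of 3 genes for pwo1 and 1 of 2 for crwn1 crwn2. The flowering lists then held 4 in place of 10 genes for pwo1 and 4 in place of 10 for crwn1 crwn2. Over all listed genes the median absolute log2 fold change was 0.83 for pwo1 and 0.87 for crwn1 crwn2. Most listed genes thus fall below this threshold too. MADS-box genes for crwn1 crwn2 fell to 1 of 2 under each alternative: AGL14 with the fold threshold, and SVP with p under 0.001 in both tools or with the adjusted bound under 0.05. The lists for crwn1 crwn2 held 7 genes under each of these p alternatives. Of all listed genes, 945 of 1239 for pwo1 and 1603 of 1935 for crwn1 crwn2 had an adjusted bound under 0.05. The share of protein-coding genes passing each alternative was not computed, so nothing is read from these counts. No paired analysis was possible because the tables carry no values per replicate, and for the same reason no replicate could be left out. Depth limits could not be computed without counts.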
